A study of Arabidopsis thaliana with 10 samples.

Results

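A group of 117 Arabidopsis thaliana genes had more reads in viable than in lethal paternal-excess endosperm, in every viable library against every lethal library, apart from 6 genes with a viable library at 0. The 117 genes were picked from the 37336 genes of the authors' allele-assigned read counts. CPM values were the reads of both alleles of a gene scaled to 1e6 gene reads in the library. A gene was taken when its lowest CPM among the viable libraries was at least 2 times its highest CPM among the lethal libraries and its mean viable CPM was 5 or more. Of 9913 genes with that mean, 120 met the thresholds (1.21%), and 3 of them are not reported here. The difference in total reads between viable and lethal endosperm is therefore how the genes were picked, and it is given as a description with no test. The direction turned round, with lethal at least 2 times viable, was met by 46 of 9745 genes (0.472%).

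Endosperm was hand-dissected from seeds of crosses between several plants, and polyA RNA was sequenced from low-input libraries. In both groups the mother was Ler and the father was 4N (tetraploid) Col. Lethal paternal excess had a wild-type father, and viable paternal excess had a father carrying nrpd1. Each group held 5 samples, which the authors combined into 3 libraries. The sample labels give 7 days after pollination, and 8 days for 1 of the samples behind lethal replicate 1, whereas the design text of the series gives an earlier day. A balanced group from another series entered as the authors' pool of 5 replicates, so it has no spread between replicates, and it differs from the crosses here in series, libraries and ploidy at once. The labels do not tell whether replicates came from separate plants, so every p-value rests on library-to-library spread that may be technical.

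Endosperm is the nutritive tissue of the seed, and in Arabidopsis it begins as a syncytium that later forms walls between its nuclei, a step called cellularization. An excess of paternal genomes delays or blocks this step and leads to seed abortion. NRPD1 is the largest subunit of RNA polymerase IV, which starts the small RNA pathway of RNA-directed DNA methylation. Building walls in a syncytium takes cell plates, wall polymers made from nucleotide sugars, callose that is laid down and removed, and plasmodesmata that join the new cells.

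Gene reads numbered 7356862 to 7983669 in lethal libraries, 5692640 to 6683136 in viable libraries and 11895484 in the balanced pool. NRPD1 itself had 164, 593 and 112 paternal (Col) reads in lethal and 109, 204 and 61 in viable replicates 1, 2 and 3, beside 120, 426 and 114 and then 216, 469 and 71 maternal (Ler) reads. Reads from a mutant allele can persist, and the site of its lesion is not stated in the labels, so these reads do not check the label. A gene with no read lay below 0.376 to 0.527 CPM per library, the level of 3 reads, which covers counting error only. Replicate 3 detected fewer genes in both groups, 15829 in lethal and 13465 in viable endosperm against 16560 to 17246 in the other 4 libraries. All 7 endosperm markers had reads, summing to 320 to 683 CPM in lethal and 385 to 555 CPM in viable libraries. Seed coat markers, 14 of 17 with a read, summed to 898 to 1308 CPM in lethal and 678 to 850 CPM in viable libraries, with no allele-assigned read of TT2, TT12 and AHA10. Embryo markers, 13 of 16 with a read, summed to 42.1 to 198 CPM in lethal and 57.9 to 102 CPM in viable libraries, with no allele-assigned read of CUC1, CUC3 and PLT2. These marker sums overlapped between the groups for endosperm and embryo, and for the seed coat every viable library lay below every lethal library; their part in the results was not tested. In bulk tissue, fewer cells of a type and less RNA per cell cannot be told apart.

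Together the 117 genes took 0.156%, 0.140% and 0.218% of the allele-assigned gene reads of lethal replicates 1, 2 and 3. They took 1.08%, 0.963% and 0.790% of viable replicates 1, 2 and 3 and 6.12% of the balanced pool. The summed level was therefore lowest in lethal, intermediate in viable and highest in balanced endosperm. Reads of EPR1 alone made up 41.8% of the balanced sum, and without it the mean viable sum was 26.1% of the balanced sum and the mean lethal sum 4.80%. Mean viable CPM ran from 5.05 to 2086 with a median of 18.6, and mean lethal CPM from 0 to 290.4 with a median of 2.93. In 7 genes the lethal libraries held no read, and over the other 110 the ratio of mean viable to mean lethal CPM had a median of 5.36. The ratio of the lowest viable to the highest lethal library ran from 2.00 to 18.9, with 42 genes under 2.5 and 28 at 4 or more. Just inside the threshold stood AT3G05670, AT1G74510 and UGT71B8, with ratios of 2.00, 2.00 and 2.01. Just outside stood AT3G14240, ACI1 and AT4G12840, with 2.00, 1.99 and 1.99. AT1G74510 had 21.3, 20.8 and 21.9 CPM in lethal and 46.6, 43.8 and 47.3 CPM in viable libraries, and AT3G14240 had 29.2, 25.8 and 12.1 CPM in lethal and 105, 92.5 and 58.4 in viable libraries. The gene outside the threshold differed more on average than the gene inside it, and its viable libraries spread more widely. AT3G05670 had 1.63, 2.72 and 1.35 CPM in lethal and 5.45, 6.82 and 5.54 in viable libraries, and UGT71B8, a UDP-glycosyltransferase gene, had 1.63, 2.31 and 2.29 CPM in lethal and 6.50, 6.35 and 4.64 in viable libraries. On the outer side ACI1 had 41.8, 25.7 and 37.0 CPM in lethal and 109, 102 and 83.3 in viable libraries, and AT4G12840 had 11.02, 7.34 and 10.5 CPM in lethal and 30.9, 21.9 and 28.9 in viable libraries.

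The highest viable library was 1.70 times the lowest as a median over the 111 genes with a read in all viable libraries, against 1.87 over 9787 expressed genes; the choice of the genes by their lowest viable library narrows this spread. Lethal replicate 3 was the highest of its group for 58 of these 111 genes (52.3%), against 25.9% of expressed genes. The residual expression in lethal endosperm was thus highest most often in the library that also detected the fewest genes of its group, and the part of that library in the values was not tested.

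On the same reads the edgeR quasi-likelihood test, adjusted by Benjamini-Hochberg over all 12674 genes tested, called 0 genes between viable and lethal endosperm (0% in either direction, lowest adjusted p = 0.122). At an unadjusted p under 0.05 it had 865 genes (6.82%), among them all 109 of the 117 that passed the filter on low counts, a filter that 8 failed. With the replicate number as a block, since equal numbers deviated together, edgeR called 83 genes higher (0.655%) and 34 lower (0.268%), 47 of the 109 among the former. DESeq2 called 142 higher (1.12%) and 57 lower (0.45%), 90 of the 109 among the former. At an unadjusted p under 0.05 the fit with the block had 13.1% of genes and DESeq2 8.19%. The authors' deposited table called 75 of the 117 higher in viable than lethal endosperm (1.74% of all genes tested) and 0 lower (0.769%). Because the same contrast picked the genes, nothing is read from these shares.

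The balanced pool was not used to pick the genes and gives their level in endosperm without paternal excess. The lethal and viable levels set beside it were used, so a low lethal level relative to balanced is in part fixed by the choice of the genes, and the shares over expressed genes are given as a description. Its CPM was above the highest viable library for 88 of the 117 genes, against 33.5% of the 9913 expressed genes. It was at or above the lowest viable library for 106 genes (66.1% of expressed genes) and at or below the highest lethal library for 4 (63.9%). Mean viable CPM was 35.7% of the balanced CPM as a median (quartiles 20.9% and 74.4%), and mean lethal CPM was 5.03% (quartiles 2.08% and 11.4%). Over 9853 expressed genes the same medians were 108% and 106%. Among the 88 genes with balanced above every viable library, the viable mean covered 25.1% of the distance from the lethal mean to balanced as a median (quartiles 14.03% and 35.5%). Of the 46 genes of the opposite direction, 28 had a balanced level below the lowest viable library and 0 had one above the highest lethal library. Storage protein and oil body genes, which rise late in seed development, summed to 76.0 to 139 CPM in lethal, 132 to 379.8 CPM in viable and 16258 CPM in balanced endosperm, so the balanced pool also stood apart in these, and the part of stage in the levels was not tested.

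**Figure D1:**
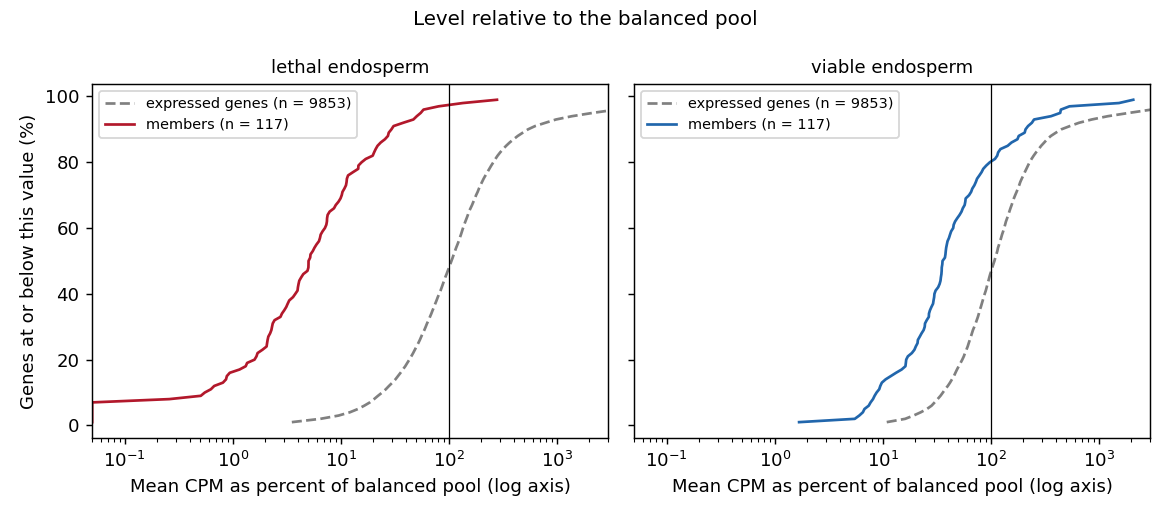
Mean CPM in lethal (left) and viable (right) endosperm as a percent of the balanced pool, on a log axis, against the percent of genes at or below that value. Solid lines are the 117 genes and dashed lines the 9853 expressed genes with a balanced read; the median of the 117 genes is 5.03% in lethal and 35.7% in viable, and that of the dashed lines 106% and 108%.

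Calls against balanced pointed the same way, in comparisons that share the lethal and viable libraries that picked the genes. By the authors' deposited table, of 116 tested genes 100 were lower in lethal than balanced endosperm (16.6% of all genes tested) and 0 were higher (17.5%). The authors' deposited table had 75 of 117 lower in viable than balanced endosperm (12.9%) and 3 higher (14.2%). Of the 116 tested in both comparisons of the authors' deposited table, 72 were lower in both, 28 in lethal only, 3 in viable only and 13 in neither. The choice of genes with low lethal values favours calls in lethal only, and no share of these patterns over all genes is given. The 2 comparisons share the balanced replicates, and whether a gene called in lethal only differs between them was not tested. The 3 genes that the authors' deposited table called higher in viable than balanced were AT3G51280, BGAL11 and RUK.

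CPM counts only reads that could be assigned to an allele, which can differ in part between genes, and is not scaled to gene length. Sums and ranks of CPM over the genes are therefore shares and ranks of allele-assigned reads. Levels of different genes are compared on FPKM (fragments scaled by gene length and library size). By the authors' deposited table of the direct comparison, RGP3 was the highest of the 117 genes in viable endosperm at 740.0 FPKM, followed by GA20OX3 at 428 and AT4G04460 at 281 FPKM. For EPR1 the authors' deposited table had 36.3 FPKM in viable and 1359.8 FPKM in balanced endosperm, in the comparison of these groups, below the 2522 FPKM of GA20OX3 and the 1756 FPKM of RGP3 in balanced endosperm. Of the 20 genes with the highest mean viable CPM, 10 were among the 20 highest by the FPKM of the authors' deposited table in viable endosperm. The authors' deposited table had 61 genes at 10 FPKM or more in viable endosperm and 37 at 1 FPKM or less in lethal endosperm. In the values below, lethal and viable libraries are each given in the order of replicates 1, 2 and 3.

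**Figure D2:**
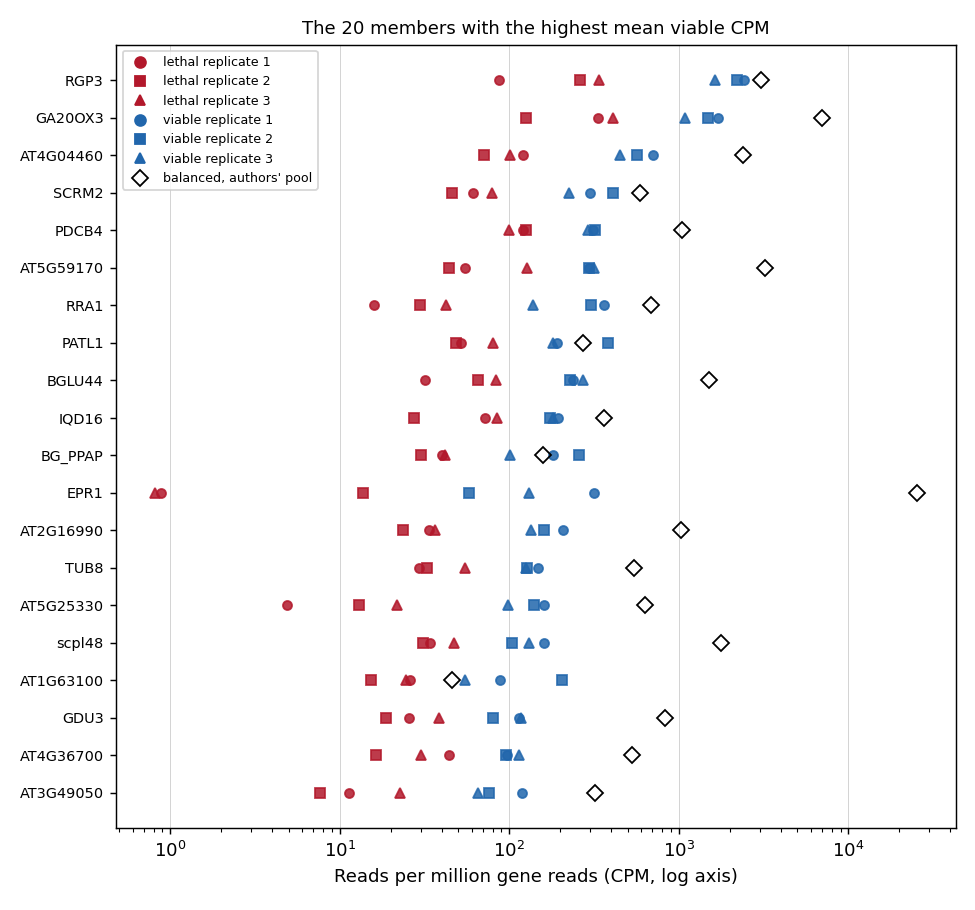
CPM (log axis) of the 20 genes with the highest mean viable CPM in each lethal library (red), each viable library (blue) and the balanced pool (open diamonds). All viable points lie to the right of all lethal points, as the genes were picked, and the balanced pool lies above every viable library for 17 of the 20.

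Cell wall genes formed a group of 7 with known roles, assigned after the members were known. RGP3 (AT3G08900, TAIR10 chromosome 3, 2706534 to 2709949), a UDP-arabinose mutase that supplies arabinofuranose to wall polymers, had 87.2, 262 and 339 CPM in lethal, 2433, 2197 and 1628 CPM in viable and 3043 CPM in balanced endosperm. RRA1 (AT1G75120, chromosome 1, 28196857 to 28198945), an arabinosyltransferase of extensins, had 16.0, 29.9 and 42.2 CPM in lethal, 363, 303 and 139 in viable and 684 in balanced endosperm. Both genes had 3 viable libraries well above 3 lethal ones, with viable means 9.10 and 9.13 times the lethal means. EPR1 (AT2G27380, chromosome 2, 11713411 to 11715774), an extensin-like wall protein known from the endosperm of germinating seeds, had 0.877, 13.7 and 0.809 CPM in lethal, 316, 57.6 and 131 in viable and 25563 in balanced endosperm. Lethal replicate 2 was the high one of its group, viable replicate 2 the low one, and the viable mean reached 0.658% of balanced. The fitted log2 differences of viable over lethal were 3.11 ± 0.55 for RGP3, 3.08 ± 0.50 for RRA1 and 5.05 ± 1.14 for EPR1 (SE, n = 3 per group).

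Pectin and arabinogalactan genes of the group followed the same order. PME3, a pectin methylesterase, had 7.14, 4.89 and 4.59 CPM in lethal, 29.3, 23.8 and 23.6 in viable and 84.9 in balanced endosperm. GALS2, a synthase of pectic galactan, had 1.88, 3.13 and 2.02 CPM in lethal, 10.0, 9.52 and 8.53 in viable and 16.1 in balanced endosperm. FLA2, a fasciclin-like arabinogalactan protein, had 1.63, 3.40 and 3.78 CPM in lethal, 11.4, 18.6 and 25.6 in viable and 46.7 in balanced endosperm. Viable libraries did not reach the balanced level in any of these genes. GH9C1, of the glycosyl hydrolase family that holds endoglucanases, had 12.02, 9.11 and 20.6 CPM in lethal and 55.9, 79.3 and 92.6 in viable libraries beside 122 in the balanced pool. In all 7 wall genes the balanced level was above the highest viable library, as in 88 of the 117 genes. The authors' deposited table called 6 of the 7 higher in viable than lethal, 6 lower in lethal than balanced and 4 lower in viable than balanced. Of the tested genes of the 117, these calls took 64.1%, 86.2% and 64.1%, and of all genes tested 1.74%, 16.6% and 12.9%. The lethal and viable libraries picked the genes, so nothing about a role is read from calls in any role group. The wall gene not called higher in viable than lethal was GH9C1, for which the authors' deposited table gave 115 FPKM in viable against 25.4 in lethal endosperm (q = 0.748). The list of cell wall polysaccharide and fasciclin genes held 18 genes tested in the authors' deposited table. Only FLA2, itself among the 7 wall genes, was higher in viable than lethal, and 0 were lower. The median log2 difference of the 11 genes of that list tested by edgeR, FLA2 included, was 0.26, against -0.05 over all genes tested.

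Plasmodesmata and callose genes numbered 5. PDCB4 (AT1G69295, chromosome 1, 26050143 to 26052721) and PDCB1 encode proteins that bind callose at plasmodesmata. PDCB4 had 121, 126 and 99.3 CPM in lethal, 313, 319 and 293 in viable and 1048 in balanced endosperm, with closely spaced libraries in both groups. PDCB1 had 11.6, 8.16 and 6.34 CPM in lethal, 37.1, 39.3 and 45.9 in viable and 106 in balanced endosperm. BG_PPAP (AT5G42100, chromosome 5, 16829113 to 16831618), a glucanase that removes callose at plasmodesmata, had 40.3, 30.3 and 41.95 CPM in lethal, 181, 256 and 101 in viable and 157 in balanced endosperm. Its balanced level lay within the viable range, unlike that of the other 4 genes. E13L3, named as a glucan endo-1,3-beta-glucosidase-like protein, had 12.5, 19.6 and 4.86 CPM in lethal, 115, 49.3 and 57.8 in viable and 237 in balanced endosperm. PDLP3, a plasmodesmata-located protein, had 2.00, 3.94 and 2.02 CPM in lethal, 13.0, 10.3 and 17.5 in viable and 46.6 in balanced endosperm. All 5 were called higher in viable than lethal and lower in lethal than balanced in the authors' deposited table, and 4 were lower in viable than balanced. Over the tested genes of the 117 these shares were 64.1%, 86.2% and 64.1%.

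Division and cytoskeleton genes numbered 7. CYCA1;1, an A-type cyclin, had 15.5, 15.6 and 16.1 CPM in lethal, 32.5, 34.1 and 42.8 in viable and 31.3 in balanced endosperm. RUK (AT5G18700, RUNKEL), a kinase-like protein that organizes the phragmoplast, had 1.38, 2.31 and 2.56 CPM in lethal, 7.03, 18.9 and 7.48 in viable and 10.2 in balanced endosperm. The viable means of these genes were 117% and 109% of balanced and the lethal means 50.3% and 20.5%. For RUK only viable replicate 2 lay above the balanced level. The authors' deposited table gave RUK 5.47 FPKM in viable and 2.49 FPKM in balanced endosperm (q = 0.0152). PATL1 (AT1G72150, chromosome 1, 27148261 to 27150994), a phosphoinositide-binding protein found at the cell plate, had 51.7, 48.4 and 79.99 CPM in lethal, 191, 384 and 182 in viable and 273 in balanced endosperm. Viable replicate 2 was the high one for RUK and PATL1, and the balanced level of PATL1 also lay within the viable range. IQD16, of the calmodulin-binding IQD family, had 71.8, 27.6 and 85.3 CPM in lethal, 195, 175 and 180.0 in viable and 361 in balanced endosperm. TUB8, a beta-tubulin, had 29.2, 32.6 and 54.9 CPM in lethal, 148, 128 and 125 in viable and 544 in balanced endosperm. Reads of TUB8 can be shared with near-identical tubulin copies, so its level is uncertain. The mean viable CPM was 21.9 for IQD31 and 13.8 for the ROP-interacting RIP5, against lethal means of 4.56 and 3.52. The authors' deposited table called all 7 lower in lethal than balanced, 4 lower in viable than balanced and 5 higher in viable than lethal. Over the tested genes of the 117 these shares were 86.2%, 64.1% and 64.1%.

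Other genes of cytokinesis and mitosis were taken from lists. Of 16 cytokinesis and cell plate genes tested in the authors' deposited table, KNOLLE, MAP65-3 and RUK were higher in viable than lethal and 0 were lower. For the syntaxin gene KNOLLE the authors' deposited table gave 302 FPKM in viable against 101 in lethal endosperm (q = 0.0219), and the gene had no allele-assigned read, so it could not enter the group. MAP65-3, a microtubule crosslinker of the phragmoplast, had 6.76, 4.49 and 4.99 CPM in lethal and 14.6, 24.1 and 8.23 CPM in viable libraries. Its groups did not overlap, and viable replicate 3 was the low one of its group. The median log2 difference was 0.53 over the 13 genes of that list tested by edgeR, RUK included, against -0.05 over all genes tested. Of 17 mitotic cell cycle genes, the authors' deposited table called CYCB2;1 higher in viable than lethal (3.83-fold, q = 0.00417) and 0 lower. The median log2 difference was 0.63 over the 12 genes tested by edgeR, CYCA1;1 included. Of all genes tested in the authors' deposited table, 1.74% were called higher in viable than lethal and 0.769% lower. CYCA1;1 itself was not called in viable against lethal in the authors' deposited table (2.28-fold, q = 0.0998).

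Genes assigned as transcription factors numbered 5, an assignment made after the values were seen. The balanced level was above every viable library in each of these 5. Members given no role, 56 in all, can include further factors, so the count and this pattern cover the assigned genes only. SCRM2 (AT1G12860, also ICE2, chromosome 1, 4384304 to 4386651), a bHLH factor known from stomatal development and cold response, had 61.0, 45.8 and 79.4 CPM in lethal, 301, 411 and 224 in viable and 588 in balanced endosperm. PHV, an HD-ZIP III factor of leaf polarity, had 4.01, 3.94 and 7.01 CPM in lethal, 38.6, 67.6 and 32.6 in viable and 70.2 in balanced endosperm. For PHV the scales differed in direction, since the authors' deposited table gave 12.5 FPKM in viable and 9.34 FPKM in balanced endosperm without a call (q = 0.428). KNAT6, a KNOX homeobox factor of meristems, had 0.752, 0.951 and 0.540 CPM in lethal, 5.80, 2.86 and 8.83 in viable and 10.1 in balanced endosperm, and it did not meet the thresholds without viable replicate 3. Mean viable CPM was 21.4 for WRKY17 and 10.4 for NLP8, a regulator of nitrate-promoted germination, against lethal means of 5.47 and 2.09.

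**Figure D3:**
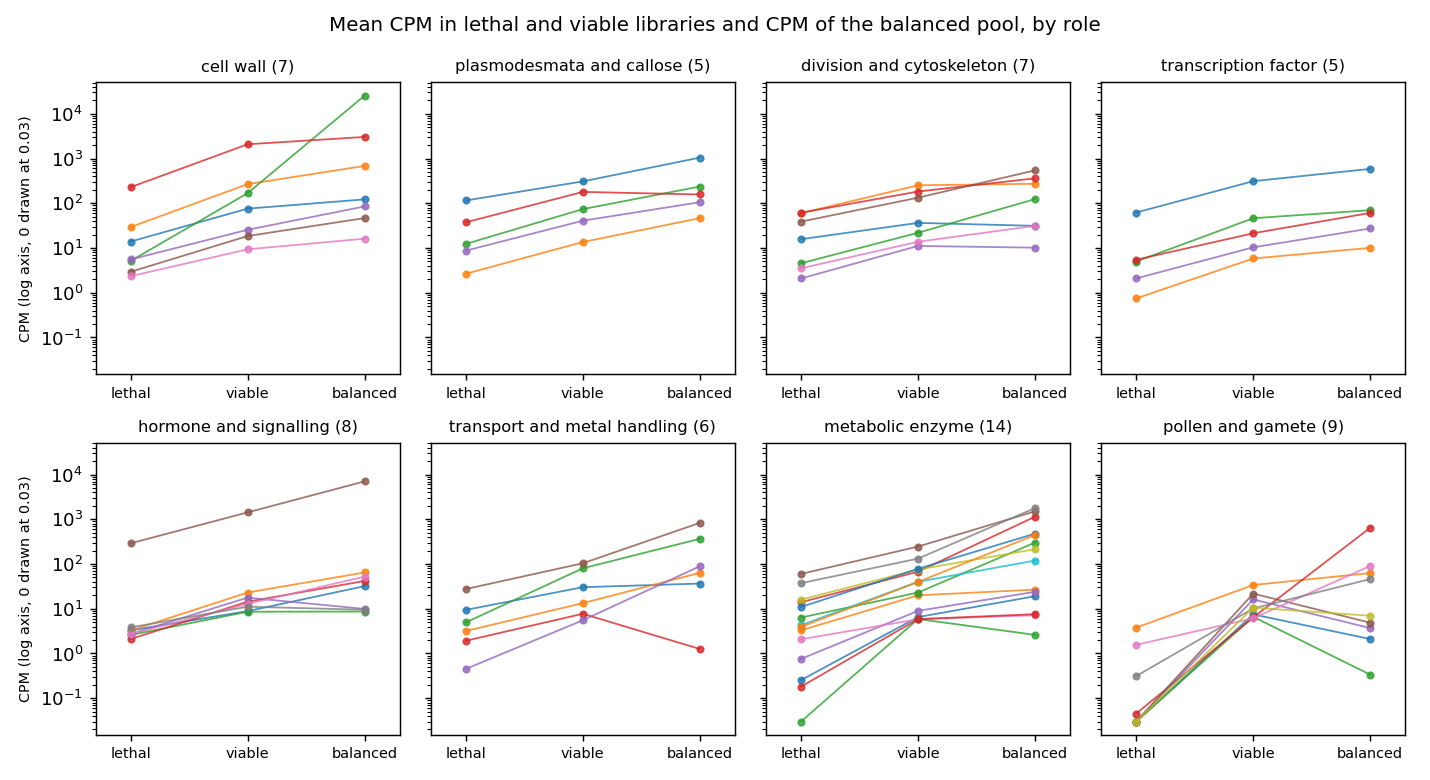
Mean CPM (log axis, 0 drawn at 0.03) in lethal and viable libraries and CPM of the balanced pool for the 61 genes assigned a role, in 8 role groups with the number of genes in brackets. Lines join the values of a gene; all rise from lethal to viable, as the genes were picked, and most rise again to balanced except in the pollen and gamete group.

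Hormone and signalling genes numbered 8. GA20OX3 (AT5G07200, chromosome 5, 2243553 to 2245339), an oxidase of gibberellin synthesis known from seeds, had 335, 126 and 410.3 CPM in lethal, 1706, 1482 and 1094 in viable and 7044 in balanced endosperm. Lethal replicate 2 was the low one of its group, and the log2 difference was 2.22 ± 0.50 (SE, n = 3 per group). The authors' deposited table gave GA20OX3 6.41-fold less in viable than balanced endosperm (q = 0.0382) and 32.1-fold less in lethal (q = 0.000936). RR16, a type-A response regulator of cytokinin signalling, had 2.38, 1.90 and 2.02 CPM in lethal, 13.2, 11.6 and 18.4 in viable and 41.9 in balanced endosperm. The other 6 were the auxin-related AXR4 and SAUR54 (AT1G19830), the brassinosteroid-inactivating enzyme gene CYP72C1, the receptor kinase genes PR5K and MRLK and the ion channel gene CNGC4, with mean viable CPM of 8.58 to 23.1. All 8 were lower in lethal than balanced in the authors' deposited table, and 5 were lower in viable than balanced. Over the tested genes of the 117 these shares were 86.2% and 64.1%. The balanced level of AXR4, MRLK and CNGC4 did not exceed the highest viable library.

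Transport genes numbered 6, and the balanced level was above every viable library in 5 of them. GDU3 (AT5G57685, chromosome 5, 23365805 to 23367063), a membrane protein of amino acid export, had 25.7, 18.8 and 38.3 CPM in lethal, 115, 79.8 and 117 in viable and 833 in balanced endosperm. CCH, a copper chaperone, had 2.25, 3.67 and 8.90 CPM in lethal, 56.0, 41.7 and 143 in viable and 366 in balanced endosperm, with viable replicate 3 the high one. UMAMIT20, of an amino acid transporter family, had 0, 0.680 and 0.674 CPM in lethal, 6.50, 6.50 and 3.59 in viable and 89.2 in balanced endosperm. SULTR3;2, of the sulfate transporter family, went the other way, with 0.501, 1.77 and 3.51 CPM in lethal, 8.08, 7.61 and 7.48 in viable and 1.26 in balanced endosperm. OCT1, an organic cation transporter, and URGT6 (AT1G34020), which carries UDP-rhamnose and UDP-galactose, had viable means at 20.9% and 82.9% of balanced. SULTR3;2 shared a balanced level at or below the highest lethal library with AT2G08105, AT2G16340 and AT3G14670. These 4 genes had mean viable levels of 5.20 to 7.73 CPM and balanced levels of 0.252 to 1.26 CPM. For AT2G16340 the scales differed in direction, since the authors' deposited table gave 1.80 FPKM in lethal and 4.39 FPKM in balanced endosperm without a call (q = 0.414).

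Enzyme genes outside the wall numbered 14, with mean viable CPM of 5.83 to 246, and 12 had a balanced level above every viable library. BGLU44 (AT3G18080, chromosome 3, 6191461 to 6194452), a beta-glucosidase, had 31.7, 65.2 and 83.2 CPM in lethal, 238, 227 and 271 in viable and 1507 in balanced endosperm. The serine carboxypeptidase-like gene scpl48 (AT3G45010, chromosome 3, 16466144 to 16470263) had 33.9, 30.9 and 47.3 CPM in lethal, 161, 104 and 131 in viable and 1779 in balanced endosperm. Viable means of BGLU44 and scpl48 were 16.3% and 7.42% of balanced. CSY1, a citrate synthase, had 8.77, 8.84 and 15.2 CPM in lethal, 110.5, 80.8 and 43.2 in viable and 477 in balanced endosperm. NIR1, the nitrite reductase, had 5.14, 3.13 and 1.62 CPM in lethal, 24.2, 16.5 and 19.2 in viable and 26.8 in balanced endosperm. Others were the glycosyltransferase genes UGT84A3 and UGT71B8, the cytochrome P450 genes CYP76G1, CYP81D7 and CYP76C2, the beta-glucosidase gene BGLU29, SSL4, GolS4, GDPD3 and SVL4. The authors' deposited table had 12 of the 14 lower in lethal than balanced, 10 lower in viable than balanced and 10 higher in viable than lethal. Over the tested genes of the 117 these shares were 86.2%, 64.1% and 64.1%.

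Among the 20 genes with the highest mean viable CPM, 7 are given by locus only, and no role is assigned to them. AT4G04460 (chromosome 4, 2224422 to 2230851) had 121, 70.7 and 101 CPM in lethal, 706, 567 and 448 in viable and 2395 in balanced endosperm. AT5G59170 (chromosome 5, 23881988 to 23883122) had 55.0, 44.3 and 127 CPM in lethal, 294, 294 and 317 in viable and 3222 in balanced endosperm, so that viable reached 9.37% of balanced. AT2G16990 had 33.4, 23.7 and 36.4 CPM in lethal, 207, 161 and 135 in viable and 1027 in balanced endosperm. These 3 loci kept the order lethal, viable, balanced in every library. AT5G25330 had 4.88, 13.0 and 21.7 CPM in lethal, 161, 139.8 and 98.6 in viable and 636 in balanced endosperm, and AT4G36700 had 43.8, 16.4 and 30.2 CPM in lethal, 97.5, 95.5 and 114 in viable and 529 in balanced endosperm. AT3G49050 had 11.3, 7.61 and 22.8 CPM in lethal, 118, 76.0 and 65.1 in viable and 323 in balanced endosperm. AT1G63100 differed, with 26.1, 15.4 and 24.7 CPM in lethal, 88.7, 204 and 54.6 in viable and 46.0 in balanced endosperm, so the balanced level was under every viable library.

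The 10 largest ratios of the lowest viable to the highest lethal library ran from 5.69 to 18.9. The largest belonged to AT1G63040 (TAIR10 chromosome 1, 23371327 to 23372073), annotated as a transcribed pseudogene, with 0, 0.136 and 0.270 CPM in lethal, 5.62, 6.03 and 5.09 in viable and 83.1 in balanced endosperm. With 34 reads in viable replicate 3 and 2 in lethal replicate 3, its ratio of 18.9 has an exact 95% interval of 4.83 to 162 for counting error only. The gene lies 8737 bases from the NRPD1 locus (AT1G63020, chromosome 1, 23354685 to 23362589) with 2 genes between, as the authors' table gives the loci. AT1G63100, on the same side, lies 36522 bases from NRPD1 with 10 genes between. Both are close to the locus that the fathers of the viable group carry as a mutant, and the part of this position in their levels was not tested. AT1G10880 had 1.002, 3.67 and 1.89 CPM in lethal, 47.4, 29.5 and 30.7 in viable and 79.4 in balanced endosperm. AT1G28700 had 2.51, 4.89 and 1.21 CPM in lethal, 58.3, 41.9 and 38.6 in viable and 174 in balanced endosperm, and AT4G23670 had 0, 0.680 and 0.674 CPM in lethal, 14.9, 6.35 and 20.3 in viable and 19.5 in balanced endosperm. The authors' deposited table gave AT1G10880, AT1G28700 and AT4G23670 18.1-, 18.1- and 18.8-fold more FPKM in viable than lethal endosperm (q = 0.00417 each). Few lethal reads lay behind AT4G23670 and behind the other loci without a role here. AT3G46810 had 0.501, 0.544 and 1.35 CPM in lethal, 11.6, 9.20 and 10.2 in viable and 40.8 in balanced endosperm. AT3G28155 had 1.13, 1.90 and 1.48 CPM in lethal, 12.3, 12.1 and 16.5 in viable and 7.65 in balanced endosperm, and AT4G20040 had 0.125, 0.816 and 0.270 CPM in lethal, 12.6, 7.46 and 4.64 in viable and 79.8 in balanced endosperm. The balanced level of AT3G28155 lay below every viable library, while that of AT4G20040 lay far above. SVL4, of the glycerophosphodiester phosphodiesterase-like family, had 0, 0.544 and 0 CPM in lethal, 9.49, 3.49 and 4.64 in viable and 7.57 in balanced endosperm. By chromosome the 117 genes numbered 31, 22, 24, 15 and 25 on chromosomes 1 to 5, and 7 neighbouring pairs lay within 50000 bases of each other. The closest pair was AT1G34020 and AT1G34040, 4244 bases apart with 1 gene between.

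In all, 9 genes of the group were assigned to pollen or gametes, and several of them had very uneven viable libraries. VGD1, a pectin methylesterase of pollen tubes, had 0 reads in all lethal libraries and 48.5, 0 and 0 CPM in viable libraries. BGAL11, a beta-galactosidase, had 65.3, 0.159 and 0 CPM in viable libraries, ACT4, a pollen actin, 31.8, 0 and 0 CPM and CHX23, a cation exchanger of pollen, 22.5, 0 and 0 CPM, all with 0 lethal reads. GLOX1, a glyoxal oxidase, had 19.5, 0.317 and 0 CPM, also with 0 lethal reads. In all 5 genes nearly every read came from viable replicate 1, and a viable library at 0 met the fold threshold only because the lethal libraries were at 0 too. AT1G23590 met it in the same way with 2.11, 0 and 15.9 CPM, most of it from viable replicate 3, so 6 of the 117 genes had a viable library without a read. Reads of ACT4 and VGD1 may be shared with near-identical family members. RALFL4, a peptide signal of pollen tube integrity, had 5.14, 1.90 and 4.32 CPM in lethal, 55.2, 14.8 and 32.0 in viable and 62.9 in balanced endosperm. GRP14, a glycine-rich protein of the pollen coat, had 0.125, 0.272 and 0.540 CPM in lethal, 4.39, 3.97 and 22.1 in viable and 46.2 in balanced endosperm, and viable replicate 3 was the high one. EC1.3, a secreted protein of the egg cell, had 0, 0.136 and 0 CPM in lethal, 7.73, 0.952 and 10.5 in viable and 646 in balanced endosperm. The ratio of EC1.3, 7.00, rests on 1 lethal and 6 viable reads and has an exact 95% counting interval from 0.850 to 322, and without viable replicate 3 the gene did not meet the thresholds. DAW1, a target of the sperm cell factor DUO1, had 0.752, 2.45 and 1.48 CPM in lethal, 6.50, 6.50 and 5.39 in viable and 90.5 in balanced endosperm, with even libraries.

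A list of 22 pollen and pollen coat genes, chosen after these values were seen, was followed across libraries. Of its 19 genes with a read, 17 were highest in viable replicate 1, and 12 had at least 90% of their reads there, 5 of them among the 117 genes and 7 not. Among the viable libraries alone, viable replicate 1 was the highest for 29.6% of the 9913 expressed genes. The share over all 6 libraries is not given for other genes. The list summed to 43.0 to 66.1 CPM in lethal libraries, 441 CPM in viable replicate 1, 66.0 and 101 CPM in viable replicates 2 and 3, and 155 CPM in the balanced pool. Its 15 genes outside the group summed to 194 CPM in viable replicate 1 and to 37.7 to 63.9 CPM in the other 5 libraries. PRK2, a pollen receptor kinase, had 0.376, 0 and 0 CPM in lethal and 34.8, 0 and 0.150 CPM in viable libraries. VGDH1, next to VGD1, had 0, 0 and 0.270 CPM in lethal and 50.1, 0.317 and 0 in viable libraries. The part of pollen or stamen RNA in viable replicate 1 was not tested. Paternal reads made up 62.0% of VGD1, 39.7% of BGAL11, 17.1% of ACT4, 26.6% of CHX23 and 86.7% of GLOX1 reads in viable libraries. Without viable replicate 1, 132 genes met the thresholds and 109 of the 117 were among them. The 8 that were not are VGD1, BGAL11, ACT4, CHX23, GLOX1, GDPD3, SVL4 and AT3G59850. AT2G26450 stayed, with 1.13, 3.13 and 0.270 CPM in lethal and 155, 9.36 and 8.08 CPM in viable libraries, most of it from viable replicate 1. Leaving out the 6 genes with a viable library at 0 left 87 of 111 with a balanced level above every viable library.

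**Figure D4:**
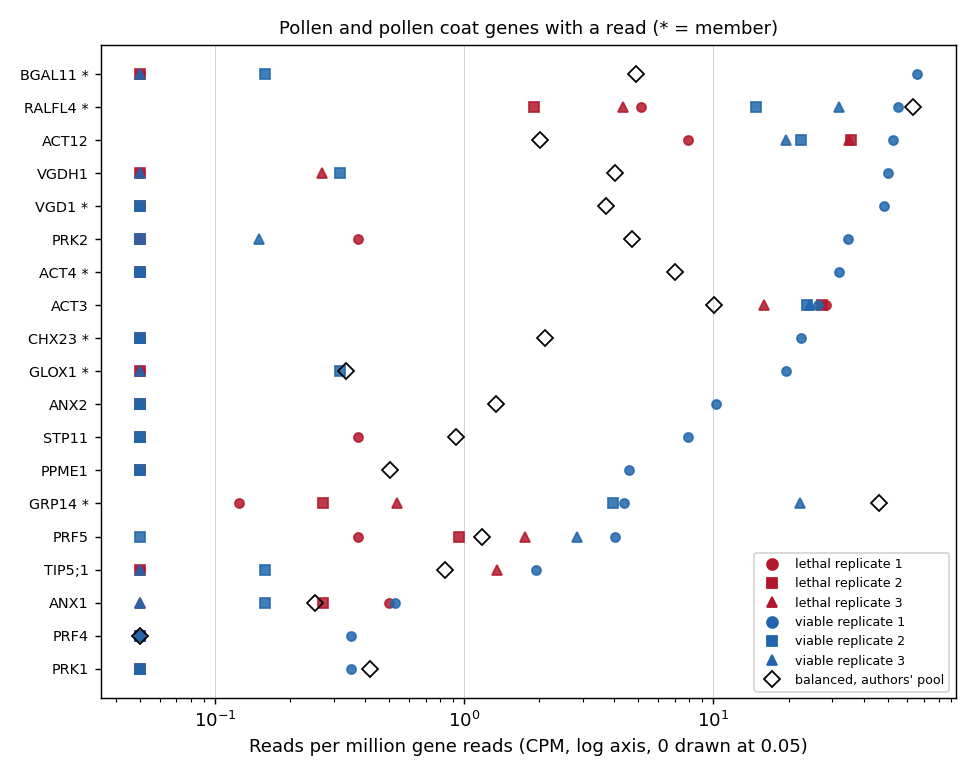
CPM (log axis, 0 drawn at 0.05) of the 19 pollen and pollen coat genes with a read, in each lethal library (red), each viable library (blue) and the balanced pool (open diamonds), with asterisks on genes of the group of 117. Viable replicate 1 is the highest of the 6 libraries for 17 of the 19 genes.

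The paternal share of reads did not enter the choice of the genes, since both alleles were summed there. A 4N father gives the endosperm as many paternal as maternal genomes, whereas in a balanced cross the mother gives more. Col (paternal) reads made up 51.9% of a gene's reads as a median in lethal endosperm (n = 103 genes with at least 10 reads) and 50.7% in viable endosperm (n = 117). In the balanced pool the median was 36.1% (n = 114). Over all genes the same medians were 50.5%, 50.5% and 33.7%. Between 25% and 75% paternal lay 84 of 103 genes in lethal and 103 of 117 in viable endosperm. An edgeR test of the allele by group term, adjusted over 12674 genes, called 0 of the 109 genes tested (0.0395% of all genes higher in viable, 0.0237% lower), with a lowest adjusted p of 0.497 among them. At an unadjusted p under 0.05 it had 17 of the 109 (4.14% of all genes), 11 of them with the higher paternal share in viable endosperm. A limma test of log2 ratios called 0 genes in all and had 16 of the 109 at an unadjusted p under 0.05 (4.85% of all genes). The median difference in log2 paternal odds, viable minus lethal, was -0.01 over the 109 genes and 0.02 over all genes. Both alleles were therefore read in viable endosperm for most of the genes, as for most genes of the libraries, and no gene of the group passed the test of a changed share.

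**Figure D5:**
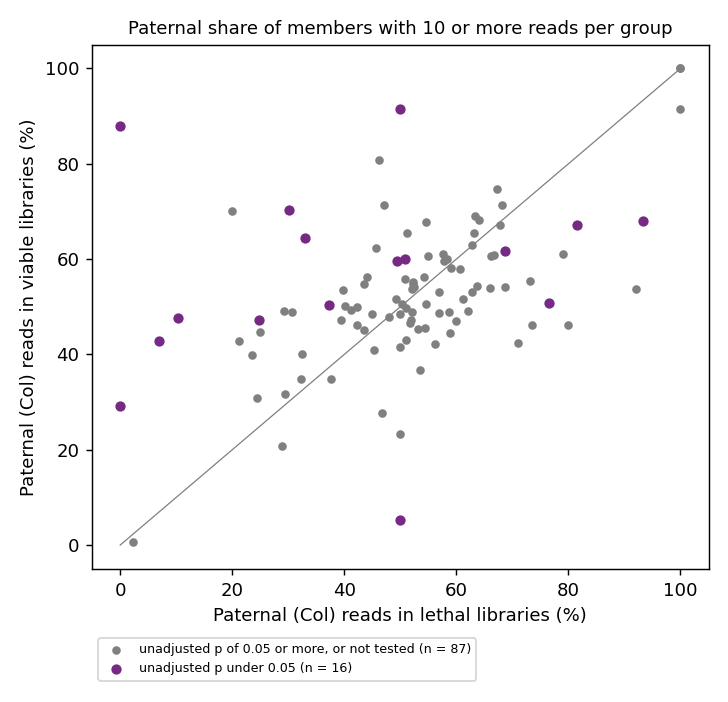
Percent of paternal (Col) reads in lethal (x axis) and viable (y axis) libraries for the 103 genes with at least 10 reads in each group, with the line of equal share. Purple points are 16 genes with an unadjusted p under 0.05 in the edgeR test, none of which passed adjustment over all genes.

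Several genes without a call had shares far from the median, some of them with few lethal reads. The noncoding AT2G01422 had 0% paternal reads in all lethal libraries (17 reads) and 94, 72.7 and 100% in viable libraries (124 reads), against 0% in the balanced pool. Its log2 odds differed by 8.74 ± 2.103 (SE, edgeR adjusted p = 0.548). SAUR54 had 90.9, 88.9 and 95.3% paternal reads in lethal and 66.7, 67.4 and 68.9% in viable libraries, against 44.7% in balanced endosperm. For SAUR54 the log2 odds differed by -2.53 ± 0.63 (edgeR adjusted p = 0.497). OCT1 had 0, 19.2 and 0% in lethal and 45.7, 32.2 and 46.4% in viable libraries, and PME3 had 24.6, 27.8 and 52.9% and 63.5, 56.7 and 72.8%. Both had the higher paternal share in viable endosperm, without a call (edgeR adjusted p = 0.971 and 0.952). GA20OX3, with far more reads, had 72.2, 64.0 and 67.2% in lethal and 63.3, 61.4 and 59.9% in viable libraries beside 53.5% in the balanced pool, a difference in log2 odds of -0.41 ± 0.14 (edgeR adjusted p = 0.971). SULTR3;2 and AT3G14670 had 100% paternal reads in lethal, viable and balanced endosperm, with balanced levels of 1.26 CPM or less. In the same order of groups AT2G46765 had 2.22%, 0.741% and 0.971%.

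Other lists of seed genes were compared between viable and lethal endosperm to set the group among pathways it does not hold. Of all genes tested in that comparison of the authors' deposited table, 1.74% were called higher in viable endosperm and 0.769% lower. Of 14 storage protein and oil body genes, the authors' deposited table called SESA2, SESA3 and OLEO3 higher in viable endosperm and 0 lower. Of 14 fatty acid and oil synthesis genes it called FAE1 higher, an elongase of seed oil (39.2 FPKM in viable against 1.95 in lethal endosperm), and 0 lower. Of 42 photosynthesis genes, LHCB1.1, LHCB1.2 and PSBO2 were higher and 0 lower in the authors' deposited table, and 21 of the 22 tested by edgeR had a log2 difference above 0. The median of these 22 was 0.59, against -0.05 over all genes tested. Genes of a list can vary together between libraries, and edgeR called 0 of the 22, so nothing about the pathway is read from this count. Of 14 seed maturation regulators, FUS3 and BZIP67 were called higher and 0 lower by the authors' deposited table. The list of endosperm growth and breakdown genes had ALE1 higher and CKX2 and AGL62 lower among 10 genes in the authors' deposited table. Among 14 embryo markers the authors' deposited table had WOX9 and CUC1 higher and ATML1 lower, with CUC1 at 6.48 FPKM in viable against 0.764 in lethal endosperm, and among 10 amino acid transport genes UMAMIT18 higher. It called none of 18 imprinted genes, 17 seed coat markers, 10 sugar transport and cleavage genes or 7 endosperm markers, and edgeR called 0 genes in any list, as it did over all genes. With the replicate number as a block, edgeR called 1 gene higher in the cell wall and fasciclin list (FLA2), 2 higher in the pollen list (RALFL4 and GRP14) and 0 in the other lists. Outside the pollen list, which held 7 of the 117 genes, the lists held only RUK, CYCA1;1 and FLA2 of them.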

How the data were processed

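The authors' deposited counts are allele-assigned reads per gene (Ler or Col), and the pool of 5 balanced replicates enters as the total and percent paternal reads in the deposited table; 10 columns of single balanced replicates were not used. FPKM and q-values are from the authors' deposited Cuffdiff tables, 1 value per group, where a q below 0.05 was taken as a call. Build TAIR10 and the tools Trim Galore, FastQC, TopHat, Bowtie and Cuffdiff are named in the submitters' processing notes. No source used here gives the strand setting of the counting or a tool version, so overlapping and antisense genes cannot be told apart.

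Rows outside genes, 7.25% to 9.66% of each library's reads, were left out. The members, gene lists and tests were chosen with earlier results of these data known, and the pollen list and role groups after the members' values were seen. Values in every library are given for the 20 genes with the highest mean viable CPM, the 10 with the largest ratios, the 3 genes in the lists other than the pollen list and the 3 nearest the threshold on either side. Members described by role beyond these were picked by their known function after the values were seen. Totals of both alleles were tested with edgeR 4.0.16 (TMM, filterByExpr, quasi-likelihood, Benjamini-Hochberg) in R 4.3.3, with DESeq2 1.42.0 as an alternative. The paternal share was tested as the allele by group term with library as a term, with limma 3.58.1 on log2((Col + 0.5)/(Ler + 0.5)) as an alternative. Both edgeR tests were run on simulated counts with a fixed spread between replicates, which checks the code and not the power in these libraries. Same-numbered lethal and viable libraries deviated together from their group means (correlations 0.114, 0.475 and 0.432 over 12674 genes), with differently numbered pairs between -0.446 and 0.155, the highest being lethal 2 with viable 1. Every same-numbered pair passed 0.1, so values with the number as a block are given. Symbols and biotypes came from a RefSeq table (TAIR10.1), in which all 117 genes matched and 59 have a symbol. Of the 117, 113 are protein coding, 3 noncoding and 1 a pseudogene. Coordinates are the authors' loci, which can span overlapping neighbours.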

Additional observations from a re-analysis of the deposited data

How the results depend on the processing

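The number of genes that met the thresholds, 117 without the 3 that are not reported, became 239 with a fold of 1.5, 55 with a fold of 3 and 208 with a mean viable CPM of 1 or more, and it ran from 132 to 257 when 1 library was left out in turn. Without viable replicate 3 it was 257, without lethal replicate 3 it was 221 and without lethal replicate 1 it was 206. TMM scaling gave 105 genes, 95 of them among the 117. For viable against lethal, calls went from 0 higher and 0 lower to 142 and 57 with DESeq2, 55 and 26 with no filter on low counts and 83 and 34 with the replicate block, while members called went from 0 to 90, 50 and 47. Each fit without a library called 0 genes. For the paternal share, calls went from 5 higher and 3 lower to 0 and 0 with limma, and to 0 to 21 higher and 0 to 5 lower without 1 library, with 21 and 5 without viable replicate 3. None of the 9 alternatives, the replicate block among them, called a member for its paternal share. The block moved no other count of calls by over 1.5 times. At a q under 0.01 the authors' deposited table had 0 of the 3 members that were higher in viable than balanced. The cause of these shifts was not tested. Over all alternatives run, members lower than balanced numbered 94 to 100 in lethal and 65 to 75 in viable endosperm, and 87 to 96 had a balanced level above every viable library, with 97, 75 and 87 for these counts when the 6 genes with a viable library at 0 were left out, a choice made after seeing the data. Of the fitted log2 differences of members, 29 recomputed values moved by more than the spread between replicates, 952 did not and 0 reversed. The search of promoter motifs was not run, as no promoter sequence was used here. With 3 libraries per group, genes under about 5 CPM and shares from few lethal reads are the least certain values.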
